A study of Columba livia with 12 samples.

Results

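SOX10, ERBB3, PMP22, MUSK and NCAM1 are 5 genes of Schwann cells and of the neuromuscular junction, described here in the breast muscle of young White-King pigeons (Columba livia). They were chosen by name, matching the gene identifiers of the deposited mRNA table to RefSeq pigeon symbols, and each of the 5 matched a single entry of the 12918 in that table. The study sampled breast muscle at 4 ages named 1D, 14D, 28D and 2Y for days or years of age, with 3 libraries per age in its labels. The 9 libraries of 1D, 14D and 28D are used here, all of the same strain and with no treatment named, and 2Y was not analysed here. The labels give neither the sex of the birds nor whether the libraries of an age are separate birds, so p-values measure only the spread between these libraries, which may be technical.

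Schwann cells wrap motor axons in myelin along the nerve and cap their endings at the neuromuscular junction. SOX10 is the transcription factor that keeps cells of the neural crest in the Schwann lineage, ERBB3 is the receptor through which Schwann cells read axonal neuregulin, and PMP22 is a membrane protein of compact myelin that fibroblasts and other cells also make. On the muscle side, MUSK is the receptor kinase that organizes the postsynaptic membrane under the nerve ending. NCAM1 is an adhesion molecule of nerve, Schwann cells, muscle precursors and immature muscle fibres, and in mammals it becomes restricted to the junction as muscle matures.

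All 5 genes were highest at 1D, and every 14D and 28D library lay below every 1D library. All 5 were called lower at 14D than at 1D and at 28D than at 1D, at a Benjamini-Hochberg adjusted p below 0.05 in limma. Such calls were common: 52.8% of the 11951 genes tested were called in either direction at 14D relative to 1D (39.2% lower, and 38.5% lower without overlap of libraries), and 60.3% at 28D relative to 1D (43.9% lower, 43.5% without overlap). The test of any difference among the 3 ages passed for 58.4% of genes and for each of the 5, with adjusted p from 3.64e-06 for ERBB3 to 0.000118 for SOX10. These 2 genes entered the tests only through their 1D libraries, so a difference was built into their selection and their p-values add little. For the other genes the adjusted p was 3.94e-06 for NCAM1, 2.28e-05 for PMP22 and 3.76e-05 for MUSK. The second interval was different, with 1.41% of genes called between 28D and 14D, 0.870% lower and 0.544% higher. SOX10, ERBB3 and PMP22, the 3 genes of Schwann cells and myelin, made 95.4%, 97.1% and 81.5% of their log2 fall by 14D. No further change of these 3 passed the test from then on. MUSK and NCAM1 had made 52.9% and 58.6% of theirs by 14D and fell again at 28D relative to 14D. Whether MUSK and NCAM1 differed in course from the other 3 was not tested. The fall of ERBB3 to 14D was 36.2-fold, against 4.90-fold for SOX10 and 3.13-fold for PMP22, as ratios of mean TPM (transcripts per 1000000, a level per transcript length).

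**Figure D1:**
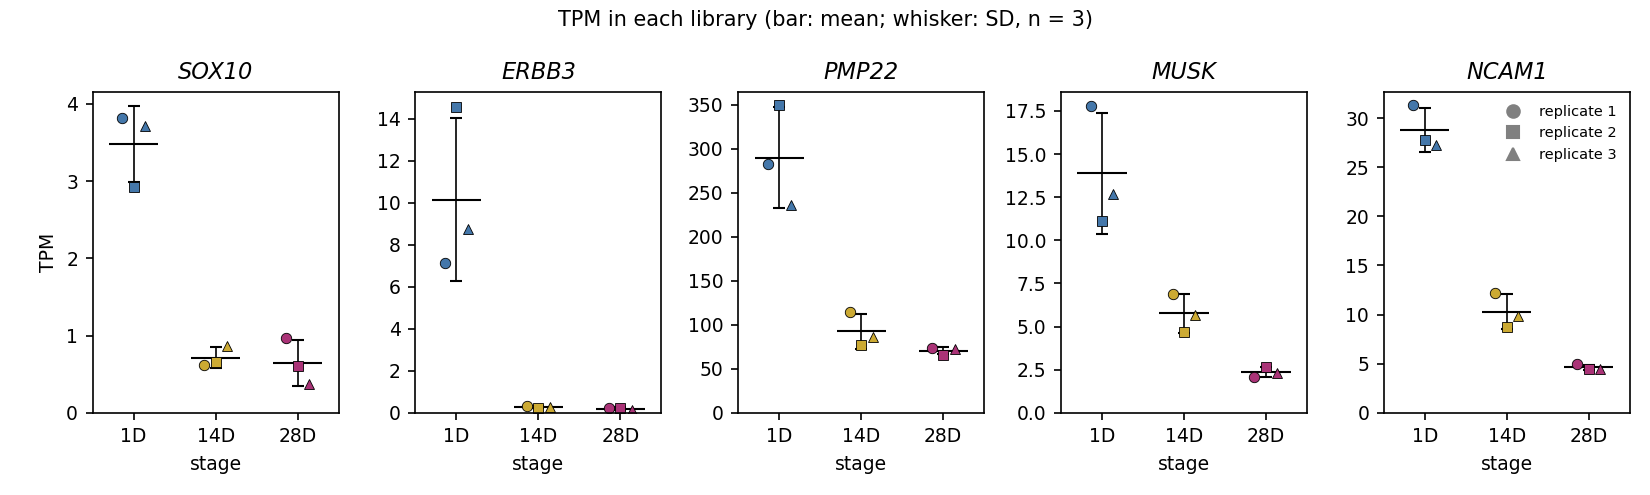
TPM of SOX10, ERBB3, PMP22, MUSK and NCAM1 (linear axes from 0, scaled to each gene) in each of the 9 libraries by age, with 1 point per library, its shape giving the replicate number, a bar at the mean of 3 and whiskers of 1 SD. ERBB3 lies at 0.132 to 0.323 TPM in the 14D and 28D libraries, against 7.15 to 14.5 TPM in the 1D libraries, while MUSK and NCAM1 step down at both intervals.

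SOX10 was the least abundant of the 5 at 1D, with 3.82, 2.92 and 3.71 TPM in the 3 libraries of 1D, 0.617, 0.653 and 0.866 TPM in those of 14D, and 0.964, 0.609 and 0.375 TPM in those of 28D. Only the 1D libraries reached 1 TPM, and the 14D and 28D libraries overlapped. On the log2(TPM + 1) scale SOX10 was lower by 1.39 at 14D relative to 1D (log2 change -1.39, SE 0.185; limma, Benjamini-Hochberg adjusted p = 0.000165). Of the tested genes, 9.96% had a more negative change than SOX10. Between 28D and 14D the change was -0.07, with a 95% interval of -0.48 to 0.34 (adjusted p = 0.899). At 28D the mean was 0.649 ± 0.297 TPM, against 3.48 ± 0.489 TPM at 1D (SD, n = 3 each), a 5.37-fold lower level (log2 change -1.45, adjusted p = 8.41e-05).

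ERBB3 had 7.15, 14.5 and 8.74 TPM in the 1D libraries, 0.323, 0.218 and 0.301 TPM at 14D, and 0.251, 0.226 and 0.132 TPM at 28D. The second library of 1D was the highest, and the lowest of 1D was still far above every later library. The log2 change at 14D relative to 1D was -3.07 (SE 0.227, adjusted p = 6.74e-06), and 60 of the tested genes (0.502%) changed by more in that direction. With a pseudocount of 0.1 in place of 1, which understates the change of a low gene less, it was -4.70. ERBB3 did not pass the test between 28D and 14D (-0.09, 95% interval -0.59 to 0.41, adjusted p = 0.887). At 28D the mean was 0.203 ± 0.063 TPM, 50.0-fold below the 10.1 ± 3.89 TPM of 1D (log2 change -3.16, adjusted p = 2.52e-06). Both SOX10 and ERBB3 entered the test only through the 1D libraries, since a gene needed 1 TPM in 3 libraries, so a difference was built into their selection and their levels carry the result more than their p-values do.

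PMP22 was the most abundant of the 5 genes. It had 283, 350.2 and 236 TPM at 1D, 115, 77.0 and 86.1 TPM at 14D, and 73.5, 66.1 and 72.0 TPM at 28D. As for ERBB3, the second library was the highest of 1D. The mean was 92.7 ± 19.8 TPM at 14D and 289.7 ± 57.4 TPM at 1D, a log2 change of -1.64 (SE 0.186, adjusted p = 6.38e-05). The 28D libraries all lay below the 14D libraries, but the change of -0.37 did not pass the test (95% interval -0.78 to 0.04, adjusted p = 0.373). At 28D PMP22 was 4.11-fold below 1D (log2 change -2.01, adjusted p = 1.09e-05), where 5.68% of the tested genes had a more negative change.

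MUSK had 17.8, 11.1 and 12.7 TPM at 1D, 6.91, 4.70 and 5.66 TPM at 14D, and 2.09, 2.67 and 2.30 TPM at 28D. No 2 ages overlapped, and the first library was the highest of 1D and of 14D. The mean at 14D was 5.76 ± 1.11 TPM, against 13.9 ± 3.49 TPM at 1D (log2 change -1.13, SE 0.201, adjusted p = 0.00101), and 15.6% of the tested genes had a more negative change. MUSK fell again at 28D, to 2.35 ± 0.296 TPM, 2.45-fold below 14D (log2 change -1.001, 95% interval -1.45 to -0.55, adjusted p = 0.0426). That call is marginal: the size of the change stayed between -1.12 and -0.88 when any single library was left out, but the adjusted p exceeded 0.05 without 6 of the 9. It was 0.0729 when 1D replicate 3 was left out, 0.0822 when 14D replicate 1 was, 0.119 for 14D replicate 3, 0.134 for 28D replicate 1, 0.0641 for 28D replicate 2 and 0.125 for 28D replicate 3. After median-ratio rescaling it was 0.0524. Over the whole interval MUSK was 5.89-fold lower at 28D than at 1D (log2 change -2.13, adjusted p = 1.23e-05).

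NCAM1 had 31.3, 27.7 and 27.3 TPM at 1D, 12.2, 8.77 and 9.84 TPM at 14D, and 4.92, 4.42 and 4.51 TPM at 28D, again without overlap between ages. The mean was 10.3 ± 1.78 TPM at 14D and 28.8 ± 2.20 TPM at 1D (log2 change -1.41, SE 0.155, adjusted p = 5.23e-05). It was 4.62 ± 0.266 TPM at 28D, 2.23-fold below 14D (log2 change -0.996, 95% interval -1.34 to -0.65, adjusted p = 0.0178). The adjusted p of this second fall was 0.0627 without 14D replicate 3 and 0.0663 without 28D replicate 3. Of the tested genes, 1.51% had a more negative change than NCAM1, and 74 genes (0.619%) were called lower at both intervals, MUSK and NCAM1 among them. At 28D NCAM1 was 6.23-fold below 1D (log2 change -2.40, adjusted p = 1.43e-06), the next in size after ERBB3 among the 5.

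**Figure D2:**
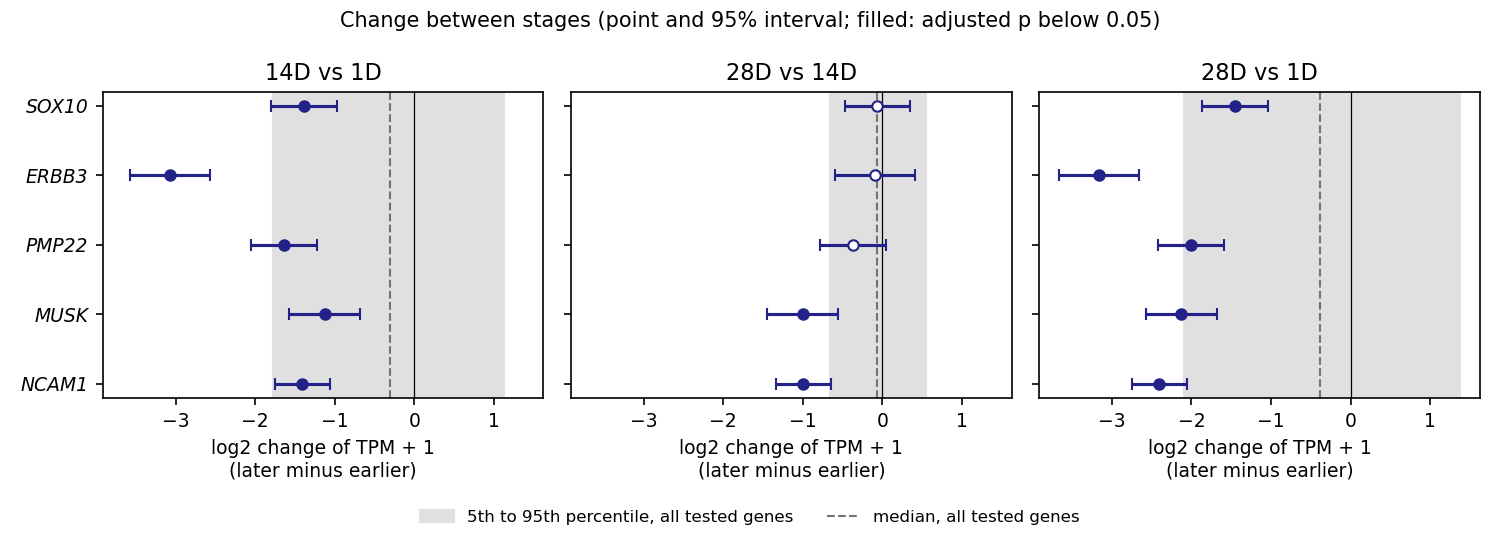
Log2 change of TPM + 1 (later minus earlier age) of the 5 genes in 3 comparisons, with 95% intervals from limma, filled where the adjusted p is below 0.05, over the 5th to 95th percentile (grey) and median (dashed) of all tested genes. ERBB3 lies outside the grey range in both comparisons with 1D. MUSK and NCAM1 are outside it in the comparisons of 28D with 1D and of 28D with 14D. SOX10, ERBB3 and PMP22 have open points in the comparison of 28D with 14D.

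Within each gene, the 2 intervals were compared as the second interval's log2 change minus the first's, a contrast added after the values were seen. It was 1.27 (SE 0.322, adjusted p = 0.0237) for PMP22, whose second change was smaller in size than its first. ERBB3 gave 2.98 (SE 0.393, adjusted p = 0.00183) and SOX10 gave 1.32 (SE 0.320, adjusted p = 0.0190). Of the tested genes, 18.8% passed in either direction and 14.8% with a positive value. MUSK gave 0.12, with a 95% interval of -0.65 to 0.90 (adjusted p = 0.837), and NCAM1 gave 0.41, with an interval of -0.18 to 1.01 (adjusted p = 0.307), which leaves room for equal or unequal steps. By 14D, 97.1% of the log2 fall of ERBB3 between 1D and 28D was complete, 95.4% of that of SOX10 and 81.5% of that of PMP22, against 52.9% for MUSK and 58.6% for NCAM1. In mean TPM these shares were 99.2% for ERBB3, 97.8% for SOX10, 89.9% for PMP22, 70.5% for MUSK and 76.5% for NCAM1. For SOX10 and ERBB3, which were under 1 TPM at 14D, the scale of log2(TPM + 1) left little room for a second step. Both were also tested only through their 1D libraries, so the sign of their contrast was largely fixed beforehand and its p-values decide nothing. PMP22, at 92.7 TPM, had that room, but its contrast missed the threshold after median-ratio rescaling (0.96, adjusted p = 0.0881) and without 14D replicate 2 (1.02, adjusted p = 0.068) or 14D replicate 3 (1.18, adjusted p = 0.0893), and that of SOX10 without 14D replicate 1 (1.24, adjusted p = 0.0644).

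The median log2 change over all tested genes was -0.31 at 14D relative to 1D and -0.38 at 28D relative to 1D. The mRNA table held 737968 to 787201 TPM at 14D and 761954 to 790319 TPM at 28D, against 835976 to 844829 TPM at 1D, and the share of TPM in the lncRNA table was 20.6% to 25.5% at 14D and 20.3% to 23.2% at 28D, against 15.0% to 15.9% at 1D. Median-ratio rescaling moved the median change to 0.02 at 14D relative to 1D, and the split of called genes to 3061 lower and 2930 higher, against 4688 lower and 1623 higher as deposited. After it, the changes at 14D relative to 1D were -1.14 for SOX10, -2.80 for ERBB3, -1.27 for PMP22, -0.79 for MUSK and -1.06 for NCAM1, and each still passed the test. Read depth is unknown, since TPM keeps no count of reads.

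Genes of the same pathways were taken from 6 lists, chosen with earlier results of these data known, and hold 94 genes besides the 5. Of these, 76 were found in the mRNA table and 74 were tested. At 14D relative to 1D, 37 of the 74 were called lower and 9 higher, with a median log2 change of -0.50, against 39.2% lower, 13.6% higher and a median of -0.31 over all tested genes. At 28D relative to 14D, limma called 3 lower (4.05%) and 0 higher, against 0.870% and 0.544% over all tested genes. After median-ratio rescaling the split at 14D relative to 1D was 25 lower and 16 higher, against 3061 lower and 2930 higher over all tested genes.

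**Figure D3:**
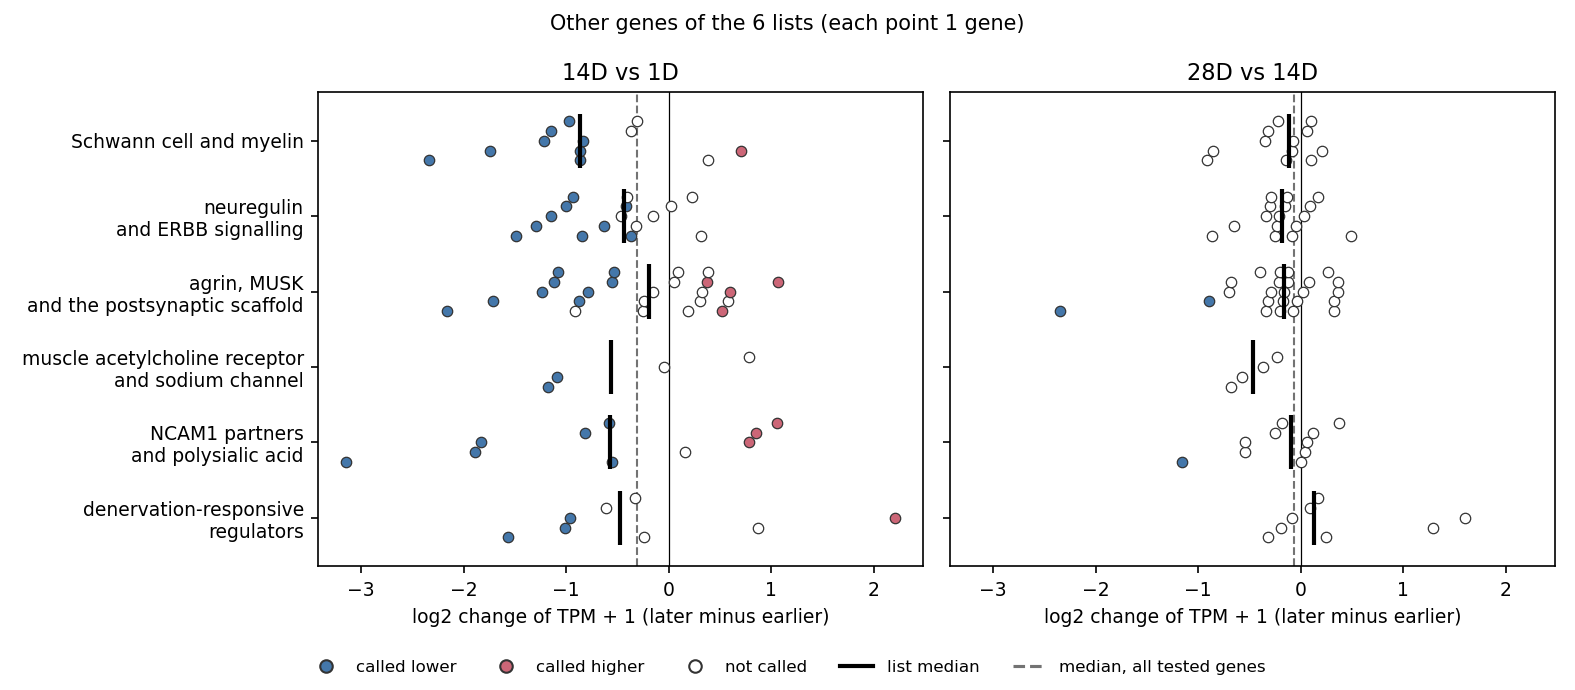
Log2 change of TPM + 1 for each tested gene of the 6 lists other than the 5 genes (1 point per gene; blue called lower, red called higher, open not called), with each list's median as a black bar and the median of all tested genes dashed. The Schwann cell and myelin list has its median at -0.86 in the comparison of 14D with 1D, and nearly all points of the comparison of 28D with 14D are open.

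Of the other Schwann cell and myelin genes, 12 of 22 were measured and tested, and at 14D relative to 1D 8 were lower and 1 higher, with a median log2 change of -0.86. These shares are 66.7% and 8.33%, against 39.2% and 13.6% over all tested genes, whose median was -0.31. CDH19, a cadherin of Schwann cell precursors, had 2.31 to 3.401 TPM at 1D, 0.638 to 0.677 at 14D and 0.243 to 0.864 at 28D (log2 change at 14D relative to 1D -1.22, adjusted p = 0.000518). Like SOX10 it reached 1 TPM only at 1D. FABP7, a fatty acid binding protein of immature glia, had 5.16, 7.51 and 5.19 TPM at 14D, against 21.5, 38.5 and 46.0 TPM at 1D (log2 change -2.34, adjusted p = 0.000102), and MAL, a myelin lipid raft protein, had a log2 change of -1.74 (adjusted p = 0.00186).

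The genes of this list were not uniform. MBP, myelin basic protein, was named after its values were seen. MBP fell to 23.5 ± 3.24 TPM at 14D, against 43.5 ± 3.89 TPM at 1D (log2 change -0.87, adjusted p = 0.00211), with 27.5 ± 5.44 TPM at 28D. DHH, a hedgehog ligand made by Schwann cells, was the gene of this list called higher at 14D relative to 1D (log2 change 0.70, adjusted p = 0.0462). The call held without 1D replicate 3 or 14D replicate 2 and was lost without any other single library (1D replicates 1 and 2, 14D replicates 1 and 3, and each of 28D), with adjusted p of 0.0501 to 0.165 there.

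Ratios of genes within a library compare members without the scale of the library. The 14 pairs were chosen after the values were seen, and were tested in 3 comparisons each, 42 exact two-sided permutation tests whose smallest possible p with 3 against 3 libraries is 0.1, so that none could pass 0.05 and the lowest Benjamini-Hochberg adjusted p was 0.183. The log2 ratio of SOX10 to CDH19 overlapped between the ages, with 0.09 ± 0.24 at 14D and 0.27 ± 0.09 at 1D (SD, n = 3 each; exact permutation p = 0.4). Both genes were under 1 TPM in these 14D libraries and were tested only through those of 1D. In these libraries the drop of ERBB3 was larger than that of SOX10: the log2 ratio of ERBB3 to SOX10 averaged -1.35 ± 0.36 at 14D and 1.48 ± 0.74 at 1D, without overlap (exact permutation p = 0.1). In each 1D library ERBB3 exceeded SOX10, and in each 14D and 28D library it lay below it. Both genes were under 1 TPM in all these later libraries, where the counting error is unknown, and were tested only through those of 1D.

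The neuregulin and ERBB list holds the ligand side and the partners of ERBB3, and 9 of its 16 tested genes were lower at 14D than at 1D and 0 higher, with a median log2 change of -0.44. That is 56.2% lower, against 39.2% over all tested genes. After median-ratio rescaling 5 of the 16 were lower, where the split over all tested genes was 3061 lower and 2930 higher. NRG1, the ligand, had a mean of 1.61 ± 0.126 TPM at 14D, against 4.01 ± 0.317 TPM at 1D (log2 change -0.94, adjusted p = 0.000613). Which cells of the muscle made the RNA of NRG1 was not tested. ERBB2, the kinase that pairs with ERBB3, had 6.09, 4.97 and 8.92 TPM at 14D, against 14.1, 11.02 and 12.3 TPM at 1D (log2 change -0.84, adjusted p = 0.00475; -0.51, adjusted p = 0.0754, after median-ratio rescaling). It was named after its values were seen. The log2 ratio of ERBB3 to ERBB2 was -4.55 ± 0.33 at 14D and -0.36 ± 0.70 at 1D, without overlap (exact permutation p = 0.1). The single 1D libraries had ratios of -0.98, 0.40 and -0.49, so neither receptor was consistently the higher at 1D, whereas ERBB2 exceeded ERBB3 in every 14D and 28D library. ERBB3 was under 1 TPM in all these later libraries, where the counting error is unknown, and was tested only through those of 1D. ERBB4, the other neuregulin receptor that can signal alone, did not pass the test in any of the 3 comparisons and had 1.01 to 4.05 TPM over the 9 libraries.

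**Figure D4:**
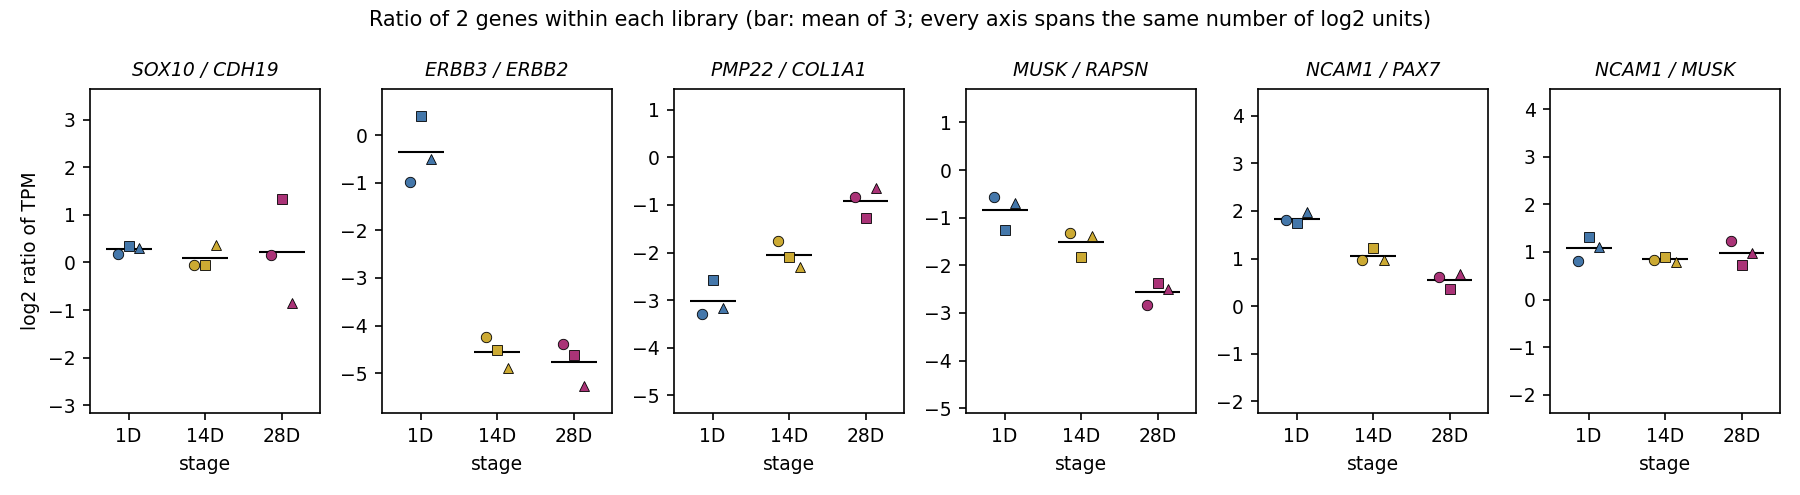
Log2 ratio of TPM of 2 genes in each library, for 6 pairs by age, with 1 point per library and a bar at the mean of 3; each vertical axis covers the same number of log2 units. The ERBB3 to ERBB2 ratio drops by 4.19 log2 units at 14D relative to 1D, with ERBB3 under 1 TPM at 14D, whereas NCAM1 to MUSK overlaps among the 3 ages.

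Other genes of that list moved less than ERBB3. ETV5, an ETS transcription factor that neuregulin induces at mammalian junctions, fell to 5.42 ± 0.261 TPM at 14D, against 17.0 ± 0.735 TPM at 1D (log2 change -1.49, adjusted p = 2.41e-05). EGFR, the founding receptor of the ERBB family, had a log2 change of -1.30 (adjusted p = 0.000348), and LRIG1, a negative regulator of these receptors, one of -1.15 (adjusted p = 0.000419). BACE1, a protease that cleaves neuregulin, had a log2 change of -0.9996 (adjusted p = 0.000906). At 28D relative to 14D none of the 16 passed the test, including NRDC and GABPA, the most abundant.

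The agrin, MUSK and postsynaptic scaffold list had 24 tested genes of 26, and at 14D relative to 1D 9 were lower and 4 higher, with a median log2 change of -0.20. These shares, 37.5% and 16.7%, are near the 39.2% and 13.6% over all tested genes, whose median was -0.31. AGRN encodes agrin, a proteoglycan that activates MUSK, and which cells of the muscle made its RNA was not tested. AGRN had 7.99, 16.1 and 11.2 TPM at 14D, against 46.1, 36.8 and 36.2 TPM at 1D (log2 change -1.72, adjusted p = 0.000129). The co-receptor through which agrin reaches MUSK, LRP4, was low and moved the other way, with 1.55, 2.78 and 2.18 TPM at 14D, against 1.17, 0.985 and 1.04 TPM at 1D. Its change of 0.60 (adjusted p = 0.0187) missed the threshold without 1D replicate 2 (0.0634), 1D replicate 3 (0.0573), 14D replicate 2 (0.059) or 14D replicate 3 (0.0508). LRP4, DOK7 and RAPSN were named after their values were seen.

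DOK7, the cytoplasmic activator of MUSK, fell to 15.7 ± 1.66 TPM at 14D, against 27.9 ± 4.07 TPM at 1D (log2 change -0.78, adjusted p = 0.00261). RAPSN, which clusters acetylcholine receptors, had 16.3 ± 1.34 TPM at 14D and 24.5 ± 3.49 TPM at 1D (log2 change -0.55, adjusted p = 0.0108), a call lost after median-ratio rescaling (-0.21, adjusted p = 0.223). MUSK was lower relative to RAPSN at each later age: the log2 ratio averaged -0.84 ± 0.38 at 1D, then -1.51 ± 0.27 at 14D and -2.57 ± 0.24 at 28D, each step without overlap (exact permutation p = 0.1 each). Relative to DOK7, the 14D libraries overlapped those of 1D (exact permutation p = 0.2), and the 28D libraries lay below those of 14D (-2.31 ± 0.13 at 28D and -1.46 ± 0.43 at 14D, exact permutation p = 0.1).

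Among matrix and scaffold genes, LAMA5, a laminin chain of the synaptic basal lamina and of other basement membranes, fell to 7.84 ± 1.31 TPM at 14D, against 38.8 ± 6.94 TPM at 1D (log2 change -2.16, adjusted p = 1.11e-05). COLQ, the collagen tail that anchors acetylcholinesterase, had 0.469 ± 0.233 TPM at 14D and 2.55 ± 1.15 TPM at 1D (log2 change -1.24, adjusted p = 0.00275), and DTNB, a dystrobrevin, had a log2 change of -1.12 (adjusted p = 0.000652). SNTB1, a syntrophin that binds dystrophin and its relatives, fell at 28D relative to 14D. It had 11.8, 16.5 and 10.9 TPM at 28D, against 45.0, 55.9 and 133 TPM at 14D (log2 change -2.35, adjusted p = 0.0181). SNTB1 lost its call without 28D replicate 1 (0.0585) or 28D replicate 3 (0.0712).

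The acetylcholine receptor subunits took different courses. Of the 5 muscle subunits, CHRNA1, CHRND and CHRNG were among the matched entries. CHRNB1 and CHRNE had no matching symbol in the reference, so their levels could not be read beside that of CHRNG. CHRND, the delta subunit, had 23.9 ± 5.89 TPM at 14D, against 54.8 ± 10.1 TPM at 1D (log2 change -1.18, adjusted p = 0.00104), and 15.5 ± 2.42 TPM at 28D. CHRNG, the gamma subunit of the embryonic receptor, had 11.7, 4.13 and 5.28 TPM at 14D, against 13.5, 16.7 and 14.2 TPM at 1D (log2 change -1.09, adjusted p = 0.0108; -0.75, adjusted p = 0.0778, after median-ratio rescaling), and 4.85, 4.70 and 6.63 TPM at 28D. CHRNG was thus still measured at 28D, and its log2 ratio to CHRND overlapped between 28D and 1D (-1.53 ± 0.32 at 28D and -1.88 ± 0.43 at 1D, exact permutation p = 0.3).

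CHRNA1, the alpha subunit that binds acetylcholine, did not pass the test in any of the 3 comparisons. It had 9.73, 7.49 and 7.13 TPM at 1D, 30.2, 17.1 and 5.65 TPM at 14D, and 10.8, 7.57 and 16.4 TPM at 28D, so the 14D libraries covered the range of the other ages. Its change of 0.78 at 14D relative to 1D did not pass the test (adjusted p = 0.186), but leaving out 14D replicate 3 gave 1.40 (adjusted p = 0.00667). The log2 ratio of MUSK to CHRND averaged -1.99 ± 0.14 at 1D, then -2.04 ± 0.09 at 14D and -2.71 ± 0.41 at 28D. The 14D libraries overlapped those of 1D (exact permutation p = 0.7), and the 28D libraries lay below those of 14D (exact permutation p = 0.1). SCN4A, the muscle sodium channel, had 14.5 ± 2.37 TPM at 28D, against 25.0 ± 6.02 TPM at 1D (log2 change -0.73, adjusted p = 0.0171). That call was lost after median-ratio rescaling (-0.33, adjusted p = 0.256) and without 1D replicate 1 (0.0639), 1D replicate 2 (0.068) or 28D replicate 1 (0.0619).

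Of the NCAM1 partners and polysialic acid genes, 10 of 11 were tested, and 6 were lower and 3 higher at 14D relative to 1D. These shares are 60% and 30%, against 39.2% and 13.6% over all tested genes. After median-ratio rescaling 3 were lower and 4 higher, where the split over all tested genes was 3061 lower and 2930 higher. GFRA1, a receptor for the neurotrophic factor GDNF that also binds NCAM, had 0.0695, 0.274 and 0.219 TPM at 14D, against 8.05, 9.72 and 10.95 TPM at 1D (log2 change -3.15, adjusted p = 1.04e-06). It was tested only through its 1D libraries, and is the gene in the lists nearest to ERBB3 in the size of its change. ST8SIA2, an enzyme that builds polysialic acid on NCAM, had 17.5, 10.6 and 13.5 TPM at 14D, against 65.9, 31.0 and 72.3 TPM at 1D (log2 change -1.89, adjusted p = 0.000437). ST8SIA4, the other polysialyltransferase, was named after its values were seen and was higher by 0.78 (adjusted p = 0.0181), a call lost without 1D replicate 3 (0.0587) or 14D replicate 2 (0.0622).

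FGFR1, a receptor that NCAM engages, fell to 18.9 ± 1.496 TPM at 14D, against 69.6 ± 7.26 TPM at 1D (log2 change -1.83, adjusted p = 9.84e-06). PRNP, the prion protein and a binding partner of NCAM, rose to 83.3 ± 13.5 TPM at 14D, against 39.99 ± 9.64 TPM at 1D (log2 change 1.05, adjusted p = 0.000828). CADM1, an adhesion molecule of the same superfamily, was the gene of the list that fell at 28D relative to 14D as MUSK and NCAM1 did, to 47.0 ± 13.2 TPM at 28D, against 104 ± 11.4 TPM at 14D (log2 change -1.16, adjusted p = 0.0239). Its adjusted p was 0.0858 with 14D replicate 3 left out, 0.0697 for 28D replicate 1 and 0.0833 for 28D replicate 3.

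Regulators that respond to denervation in mammalian muscle were listed because MUSK, NCAM1 and the receptor subunits respond to it as well. Of 8 tested, 3 were lower and 1 higher at 14D relative to 1D, shares of 37.5% and 12.5% that are near the 39.2% and 13.6% over all tested genes, and none passed the test at 28D relative to 14D. DACH2, a repressor of myogenin in innervated muscle of mice, had 25.2, 33.2 and 17.4 TPM at 14D, against 4.31, 5.34 and 3.96 TPM at 1D (log2 change 2.21, adjusted p = 7.57e-05), and stayed at 26.8 ± 7.17 TPM at 28D. HDAC9, a deacetylase of the same pathway, had a log2 change of -1.02 (adjusted p = 0.000662), and HDAC4, one induced by denervation in mice, of -0.96 (adjusted p = 0.00379). SIK1, a kinase that acts on these deacetylases, was low at 14D, with 46.0, 45.8 and 19.5 TPM, against 135, 80.2 and 105 TPM at 1D (log2 change -1.57, adjusted p = 0.00308). It had 82.8, 100.5 and 147 TPM at 28D (change from 14D 1.60, adjusted p = 0.0505). This rise passed the limma test with a pseudocount of 0.1 (adjusted p = 0.0499) or a 5 TPM filter (0.0452). It also passed after median-ratio rescaling (0.0384) or quantile normalization (0.0461), and without 14D replicate 1 (0.0421).

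In bulk muscle, fewer cells of a type and less RNA per cell cannot be told apart, and the summed markers of other cell types moved between the same ages. The summed TPM of the 12 Schwann cell and myelin genes was 106 to 133 at 14D and 97.5 to 122 at 28D, against 240.3 to 288 at 1D. Satellite cell and myoblast markers, 9 of 9 measured, summed to 126 to 144 TPM at 14D and 94.3 to 104 TPM at 28D, against 424 to 655 TPM at 1D. Of these 9, limma called 4 lower and 0 higher at 14D relative to 1D and 5 lower and 1 higher at 28D relative to 1D. The shares lower, 44.4% and 55.6%, are not far from the 39.2% and 43.9% over all tested genes. NES, an intermediate filament protein, held much of the sum at 1D, with 26.5 ± 6.34 TPM at 14D, against 297.6 ± 83.6 TPM at 1D. Fibroblast markers, 7 of 7 measured, summed to 1982 to 2173 TPM at 14D and 972 to 1072 TPM at 28D, against 7214 to 8937 TPM at 1D.

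All 7 fibroblast markers were called lower at 14D relative to 1D, and 4 at 28D relative to 14D, against 39.2% and 0.870% over all tested genes. Muscle fibre markers, 4 of 7 measured, summed to 33552 to 39242 TPM at 14D and 30066 to 31288 TPM at 28D, against 21147 to 26501 TPM at 1D. Limma called 2 of the 4 higher and 0 lower at 14D and at 28D relative to 1D. That is 50% higher, against 13.6% and 16.4% over all tested genes. Neuronal markers were scarce: 4 of 17 were measured, summing to 5.20 to 5.90 TPM at 14D and 14.7 to 21.0 TPM at 1D, of which UCHL1, also made by other cells, held 12.5 ± 2.87 TPM at 1D. Endothelial markers, 6 of 6 measured, summed to 408 to 823 TPM at 14D and 542 to 630 TPM at 28D, against 302 to 368 TPM at 1D. At 14D and at 28D relative to 1D, 4 of the 6 were called higher (66.7%) and 0 lower. The melanocyte list, in which 2 of 6 were measured, summed to 15.6 to 16.9 TPM at 14D and 10.48 to 14.3 TPM at 1D. No measured gene of these lists was at 0 in every library, though genes at 0 or at low levels throughout may have been left out of the deposited values. Unmeasured markers are not all unexpressed: SYN1, PRPH, CKM, MYLPF and MYBPC2 had no matching symbol in the reference. The same holds for PMP2, PRX, L1CAM and SCN7A of the Schwann cell and myelin list. The part of these shifts in the changes of the 5 genes was not tested.

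**Figure D5:**
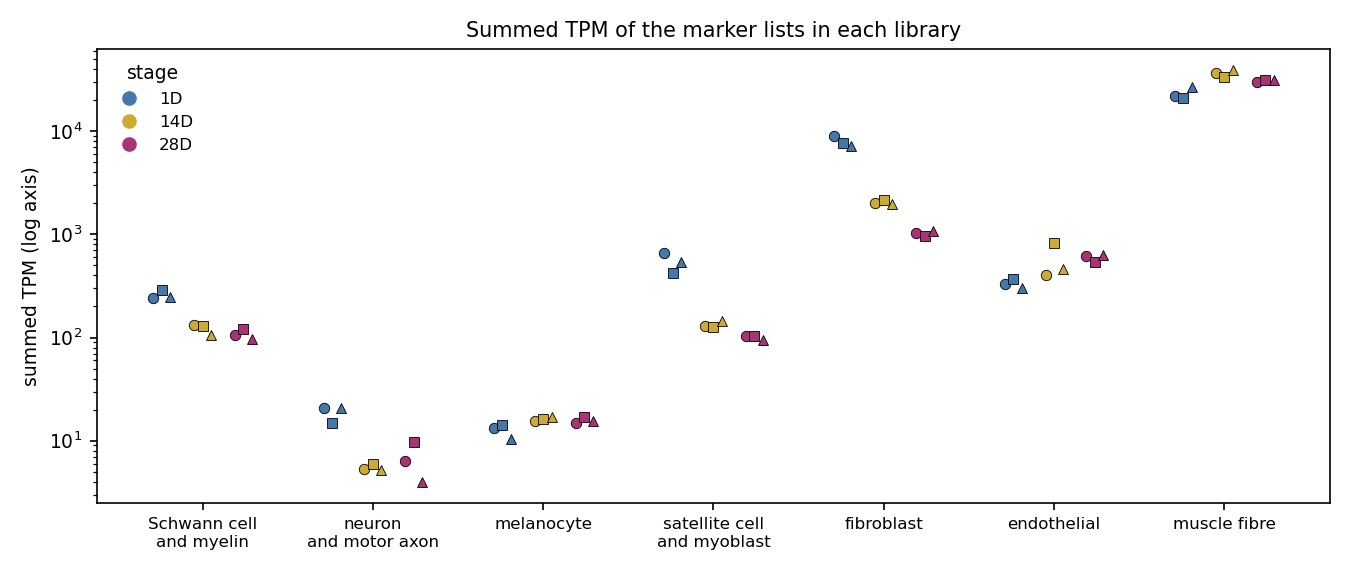
Summed TPM (log axis) of the measured genes of the Schwann cell and myelin list and of 6 lists of other cell markers in each library by age, 1 point per library. Schwann cell, satellite cell and fibroblast sums are lower in every 14D and 28D library than in any 1D library, and the fibroblast sum is lowest at 28D, at 972 to 1072 TPM.

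Ratios of members to single markers took different courses. The log2 ratio of PMP22 to COL1A1, the main collagen of fibroblasts, averaged -3.01 ± 0.38 at 1D, then -2.05 ± 0.28 at 14D and -0.92 ± 0.33 at 28D, higher at each age than at the one before, without overlap (exact permutation p = 0.1 each). Ratios of PMP22 to the other fibroblast markers were not taken, and these markers fell by unlike amounts. COL1A1 fell the most of them from 1D to 28D, so the ratio to it does not speak for the others. In order of age, COL1A1 averaged 2329, 381 and 135 TPM and COL1A2 1931, 343 and 186 TPM. DCN averaged 931, 340 and 242 TPM and COL3A1 1411, 635 and 267 TPM, beside 289.7, 92.7 and 70.5 TPM for PMP22. Relative to PAX7, the transcription factor of satellite cells, NCAM1 was lower at each later age, with a log2 ratio of 1.84 ± 0.12 at 1D, 1.05 ± 0.15 at 14D and 0.55 ± 0.17 at 28D, each step without overlap (exact permutation p = 0.1 each). Its ratio to CDH15, a cadherin of myoblasts, overlapped among all 3 ages (-1.23 ± 0.38 at 14D and -1.63 ± 0.41 at 1D, exact permutation p = 0.2), as did its ratio to MUSK (1.08 ± 0.25 at 1D, 0.84 ± 0.05 at 14D and 0.98 ± 0.26 at 28D; exact permutation p = 0.3 for 14D against 1D).

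Genes with the most similar profile were ranked by Pearson's r of log2(TPM + 1) over the 9 libraries among 10277 genes with a symbol, as a description, since genes share the libraries and their age groups. For MUSK they included GHR, the growth hormone receptor (r = 0.992), and XIRP1, an actin-binding protein of striated muscle (0.991). In order of age, GHR averaged 237, 150.1 and 89.9 TPM, and XIRP1 averaged 68.9, 32.5 and 15.2 TPM. For NCAM1 they were COL4A5 and COL4A6, chains of basement membrane collagen (both 0.996), and EPRS1, a transfer RNA synthetase (0.992). COL4A5 averaged 167, 28.1 and 9.002 TPM at 1D, 14D and 28D, a steeper course than that of NCAM1.

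For PMP22 they were the transcription factor FOXP2 (0.996), FSTL4 (0.994) and the protease TLL2 (0.993). FOXP2 averaged 5.85, 1.52 and 0.971 TPM at 1D, 14D and 28D. For SOX10 they were ARL2BP (0.997), EMG1 (0.995) and NIP7 (0.994), of which EMG1 and NIP7 act in ribosome assembly, with EMG1 at 159, 38.6 and 37.8 TPM at the 3 ages. For ERBB3 they were FMR1NB (0.999), listed at 0 in all 14D and 28D libraries, KCNV2 (0.999), a potassium channel subunit with 3.27 TPM at 1D and 0.0917 and 0.0395 TPM later, and CISD2 (0.998). An r above 0.9 was common, shared by 2258 genes with SOX10, 2336 with ERBB3, 2114 with PMP22, 1696 with NCAM1 and 971 with MUSK. Among the 5 themselves, r over the 9 libraries ran from 0.840 for ERBB3 with MUSK to 0.985 for MUSK with NCAM1, values that contain the shared steps between ages. Between deviations from the age means, r ran from -0.60 for ERBB3 with MUSK to 0.71 for MUSK with NCAM1, and was -0.36 for SOX10 with ERBB3.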

How the data were processed

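Breast muscle RNA of White-King pigeons was extracted with Trizol and sequenced on Illumina libraries, per the labels' protocols. The submitters' processing notes name STAR 2.6.0c and Cufflinks 2.1.1, while no role, genome build, annotation or strand setting is given in the sources used here. TPM values were deposited by the authors, in a table of 12918 mRNA entries and one of 9158 lncRNA entries. Each table had 12 value columns, of which 9 matched a sample title by name and 3 matched no label and were not used, so the planned comparisons with 2Y were not run. Identifiers were matched to RefSeq symbols (assembly bColLiv1.pat.W.v2, not named by the authors), with 12256 mRNA and 1604 lncRNA entries found. In all libraries the 2 tables together summed to 991186 to 993735 TPM, and no libraries were identical.

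A linear model with a mean per age was fitted to log2(TPM + 1) in limma 3.58.1 (R 4.3.3, moderated with trend). It covered the 11951 genes that reached 1 TPM in 3 or more of the 9 libraries. All 9 libraries shared the estimate of the spread. P-values are two-sided, adjusted by Benjamini-Hochberg over all tested genes within each comparison, with a threshold of 0.05. Log2 changes are on the log2(TPM + 1) scale, which understates those of low genes, and ratios of genes are of TPM without a pseudocount. The comparisons of 28D and 14D with 1D share the 1D libraries.

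The 5 genes, the lists and the tests were chosen with earlier results of these data known. From each list, up to 4 called genes with the largest change were named in each comparison, or up to 2 with the highest mean where none was called, with all measured receptor subunits; other named genes are said to be. Some genes that these rules name are not reported here. The values of 22 alternative settings are given at the end.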

Additional observations from a re-analysis of the deposited data

How the results depend on the processing

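The falls of all 5 genes at 14D and at 28D relative to 1D, and their tests over the 3 ages, kept their direction and their call under every alternative run, which were 17 to 19 per gene. Without any 1D library the filter drops SOX10 and ERBB3, so these leave-outs, added after the data were seen, kept the genes tested with all 9 libraries; ERBB3 then had -3.26 to -2.80 and SOX10 -1.48 to -1.33 at 14D relative to 1D. SOX10 could not be fitted with a 5 TPM filter, and neither gene with only 28D and 14D. The second fall of MUSK (-1.001, adjusted p = 0.0426) missed the threshold with a pseudocount of 5 (-0.54), after median-ratio rescaling (-0.98) or quantile normalization (-0.88), with only the 2 ages compared in the fit (-1.001) and without single libraries (-1.12 to -0.88, adjusted p up to 0.134). That of NCAM1 missed it with only the 2 ages compared (-0.996, adjusted p = 0.0763) and without single libraries (-1.09 to -0.87). Small changes of uncalled genes between 28D and 14D turned direction: SOX10 to 0.048 and ERBB3 to 0.027 after quantile normalization, and without single libraries SOX10 ranged from -0.20 to 0.057, CHRNG from -0.49 to 0.16, CHRNA1 from -0.98 to 0.14 and GABPA from -0.14 to 0.0025.

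The second change minus the first missed the threshold for SOX10 with a pseudocount of 0.1 (1.97) and without single libraries (1.19 to 1.45), and for PMP22 after median-ratio rescaling (0.96), quantile normalization (0.99), rescaling of the mRNA table to 1000000 TPM (1.07) and without single libraries (1.02 to 1.59). For MUSK it turned to -0.0013, -0.18, -0.074 and -0.080 under pseudocount 0.1, median-ratio, quantile and 1000000 TPM, and ran from -0.11 to 0.36 without single libraries. This contrast and the 1000000 TPM scaling were added after the data were seen.

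Of the pathway genes, 16 were higher at 14D relative to 1D after median-ratio or quantile scaling, against 9 as deposited. Without single libraries 5 to 9 were. Over all tested genes, the 2 scalings gave 2930 and 2964 higher, against 1623. At 28D relative to 1D the pathway counts were 15 and 15, against 8, and those over all tested genes 3405 and 3440, against 1960. At 28D relative to 14D, 0 were lower with only the 2 ages compared and 0 to 4 without single libraries, against 3. As for genes higher, 1 (SIK1) was with a pseudocount of 0.1, a 5 TPM filter, median-ratio or quantile scaling and 0 to 1 without single libraries, against 0. Over all genes at 28D relative to 14D, 104 were lower and 65 higher, against 17 and 11 with only the 2 ages compared and 11 lower without 28D replicate 3. At 28D relative to 1D, 3496 were lower and 3405 higher after median-ratio rescaling, against 5249 and 1960.

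Same-numbered libraries did not deviate together (r -0.0719 to 0.0466 over 9 pairs of libraries, 0 above 0.1), so the main fit treats them as unpaired. A weaker link between equal numbers would not show in this check. With the replicate number as a block, 58 genes were lower and 38 higher at 28D relative to 14D, MUSK had -1.001 with an adjusted p of 0.0708, and no other call of the 5 genes changed. The 2Y alternatives were not run. Depth is unknown, so levels under 1 TPM carry an unknown counting error.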

Other observations

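Genes that lie next to the 5 in the order of the reference annotation were read as well, as values only, since strand use in the libraries is not given in the sources used here. The lncRNA LOC110364911, next to MUSK, had 1.59, 2.19 and 2.02 TPM in the lncRNA table at 1D, 0.846, 0.723 and 0.775 TPM at 14D, and 0.671, 0.669 and 0.363 TPM at 28D, with no overlap between ages. LPAR1, on the other side of MUSK, had 8.93, 9.30 and 5.70 TPM at 1D and 2.38, 2.89 and 3.21 TPM at 14D. Its 28D libraries, with 2.75, 4.12 and 1.88 TPM, overlapped those of 14D. TTC12, next to NCAM1, had 7.63, 6.70 and 6.53 TPM at 1D, 1.74, 2.91 and 1.48 TPM at 14D, and 0.817, 1.25 and 0.451 TPM at 28D. Its ages did not overlap, nor did those of NCAM1. At 14D relative to 1D, 38.5% of the tested mRNA genes were called lower without overlap, and 0.870% were at 28D relative to 14D. Such shares were not taken for the lncRNA table. POLR2F, next to SOX10, had 94.7, 93.0 and 110.1 TPM at 1D, 55.8, 81.5 and 63.5 TPM at 14D, and 117, 88.4 and 89.5 TPM at 28D, so its 28D libraries overlapped those of 1D. PICK1, further along on the other side of SOX10, had 14.0, 12.5 and 11.5 TPM at 1D and 5.41, 7.55 and 6.72 TPM at 14D. With 6.88, 5.48 and 5.84 TPM at 28D, all its later libraries lay below those of 1D. Some neighbours of the 5 genes are not reported here.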
